A study of Mus musculus with 4 samples.

Results

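The 10 genes described here encode tubulin and proteins that bind, bundle or destabilise microtubules, and they were taken by symbol from the 32285 genes of the count tables: *Tubb3*, *Dcx*, *Dclk1*, *Map1b*, *Map2*, *Mapt*, *Stmn1*, *Stmn2*, *Stmn3* and *Stmn4*. All 10 had a single entry. They were followed across progenitors, young neurons and glia sorted as tdTomato-positive cells from the forebrain of C57BL/6 mice at postnatal day 5. Control mice were NestinCreERT2/tdTomato/Chd8+/+ and mutant mice NestinCreERT2/tdTomato/Chd8+/F, and all had been exposed to tamoxifen at the midfetal stage. Each genotype had 2 libraries (replicates 1 and 2) of the 10x Genomics Chromium 3′ v3.1 kit, with an input of 5000 cells. As a model, these groups are limited by the sort for tdTomato after recombination by a Nestin-driven, tamoxifen-dependent Cre, and they also held 266 microglia and 166 endothelial cells, which are not of the neural lineage. The mice of a library were pooled, and p-values therefore measure the spread between libraries, not between mice.

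Microtubules are polymers of alpha- and beta-tubulin that carry cargo, shape axons and dendrites and form the mitotic spindle. Beta-III tubulin, encoded by *Tubb3*, is the classical tubulin of young neurons. Doublecortin (*Dcx*) and doublecortin-like kinase 1 (*Dclk1*) stabilise microtubules in migrating cells, the structural microtubule-associated proteins MAP1B, MAP2 and tau (*Mapt*) bind along the polymer in growing neurites, dendrites and axons, and stathmins (*Stmn1* to *Stmn4*) bind free tubulin dimers and promote disassembly. *Stmn1* is widely expressed in dividing cells, whereas *Stmn2* is known as a neuronal gene of growing axons.

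In all, 17623 of 27742 barcodes were kept, from libraries of 46274374 to 79328841 UMIs (unique molecular identifiers, 1 per captured transcript). They fell into 14 cell types with at least 20 cells in every library, which held 16502 cells. A type was named from its markers and is "X-like" throughout, although the suffix is left out below. Clusters were formed without the 10 genes and without 73 other microtubule genes. *Chd8*, the targeted gene, was at 61.7 and 89.8 CPM (counts per 1000000 UMIs) in control replicates 1 and 2 and at 68.7 and 94.9 CPM in mutant replicates 1 and 2, so that it was not lower in the mutants. The counts were per gene and not per exon, and why *Chd8* was not lower was not tested. The 2 libraries of replicate 1 were headed with Cell Ranger 7.0.0 and those of replicate 2 with 5.0.1. *Xist* was at 0.149 and 0.153 CPM in replicate 1 and at 1633 and 1749 CPM in replicate 2, and *Dcx* lies on the X chromosome. *Xist* is transcribed from the inactive X chromosome of female cells. The reporting summary of the study gives male mice for the single-cell experiments. The *Xist* level of both libraries of replicate 2 goes against that stated sex. Values are therefore given per library. Software version and *Xist* level cannot be told apart from the replicate number. Between 2 and 15 cell barcodes were shared by any pair of libraries.

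Sequence around the start sites was available for 6 of the 10 genes in the RefSeq table for GRCm38.p6, with 8 entries of 300 bases each (250 before to 50 after the start). The entries of 5 genes are shown, with 1 or more genes from the tubulin, doublecortin, structural and stathmin groups. *Dcx*, *Map1b* and *Stmn3* were all counted in oligodendrocyte lineage cells, as was *Map2*. Capitals mark the E-box CANNTG, the letters bound by basic helix-loop-helix factors (the motif reads the same on both strands), which was not found in the *Tubb3* and *Dcx* entries. *Tubb3* lies at chr8:123411303-123411602, plus strand, *Dcx* at chrX:143933170-143933469, minus strand, *Dclk1* at chr3:55242114-55242413, plus strand, *Map1b* at chr13:99516553-99516852, minus strand, and *Stmn3* at chr2:181314451-181314750, minus strand.
Tubb3: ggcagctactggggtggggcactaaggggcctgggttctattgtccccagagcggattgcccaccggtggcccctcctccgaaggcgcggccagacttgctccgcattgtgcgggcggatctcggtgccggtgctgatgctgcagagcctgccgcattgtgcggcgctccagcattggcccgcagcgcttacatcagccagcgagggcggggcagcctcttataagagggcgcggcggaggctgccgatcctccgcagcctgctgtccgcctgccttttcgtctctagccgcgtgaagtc
Dcx: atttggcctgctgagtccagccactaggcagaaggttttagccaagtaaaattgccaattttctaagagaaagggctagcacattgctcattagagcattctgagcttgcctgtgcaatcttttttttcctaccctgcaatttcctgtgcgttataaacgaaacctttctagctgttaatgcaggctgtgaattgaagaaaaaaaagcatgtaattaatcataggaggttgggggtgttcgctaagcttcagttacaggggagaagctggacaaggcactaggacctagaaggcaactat
Dclk1: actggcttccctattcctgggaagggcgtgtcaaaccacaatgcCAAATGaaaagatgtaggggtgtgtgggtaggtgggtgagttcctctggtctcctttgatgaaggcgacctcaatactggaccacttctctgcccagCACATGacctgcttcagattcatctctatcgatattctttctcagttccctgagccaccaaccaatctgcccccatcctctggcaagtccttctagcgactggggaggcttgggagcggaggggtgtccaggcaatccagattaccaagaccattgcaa
Map1b: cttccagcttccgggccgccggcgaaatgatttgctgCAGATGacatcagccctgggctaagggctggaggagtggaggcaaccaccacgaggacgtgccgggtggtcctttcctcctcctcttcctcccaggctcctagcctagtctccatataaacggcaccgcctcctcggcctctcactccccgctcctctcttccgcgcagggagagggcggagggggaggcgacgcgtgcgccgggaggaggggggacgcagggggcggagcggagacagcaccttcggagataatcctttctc
Stmn3: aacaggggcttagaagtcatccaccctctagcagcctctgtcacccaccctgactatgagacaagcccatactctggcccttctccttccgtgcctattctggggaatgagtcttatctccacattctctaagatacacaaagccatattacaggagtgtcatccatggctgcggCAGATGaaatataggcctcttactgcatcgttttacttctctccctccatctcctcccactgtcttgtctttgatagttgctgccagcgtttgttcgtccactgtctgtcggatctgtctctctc
CANNTG was found in 4 of the 8 entries, with no match in that of *Map2*, and in 72.3% of all 32851 promoters of this length. Its variant CAGATG, read on both strands, was found in 2 of 8 (*Map1b* and *Stmn3*) and in 17.2% of all. The Sox motif AACAAT was in 0 of 8 against 10.7% of all, the NFI motif TTGGC in 3 of 8 against 46.7%, and the partial REST motif TTCAGCACC in 0 of 8 against 0.371%, each on both strands. The start regions differed widely in base composition. The *Map2* entry had 77.7% G and C and 37 CpG dinucleotides, *Tubb3* 67.3% and 26, and *Map1b* 65.7% and 23. The *Dcx* entry shown had 43% and 3, against medians of 52.7% and 7 over all promoters. These matches describe the letters in the windows only.

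Of the 10 genes, 7 were at their highest mean level in inhibitory neurons and 1, *Mapt*, in excitatory neurons. The other 2 departed from a neuronal label. *Dclk1* was highest in astrocytes and *Stmn1* in dividing inhibitory neuron progenitors. Levels below are CPM of the UMIs summed over the cells of a type in each library, and means are over the 4 libraries. They are compared between cell types for the same gene, not between genes.

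**Figure D1:**
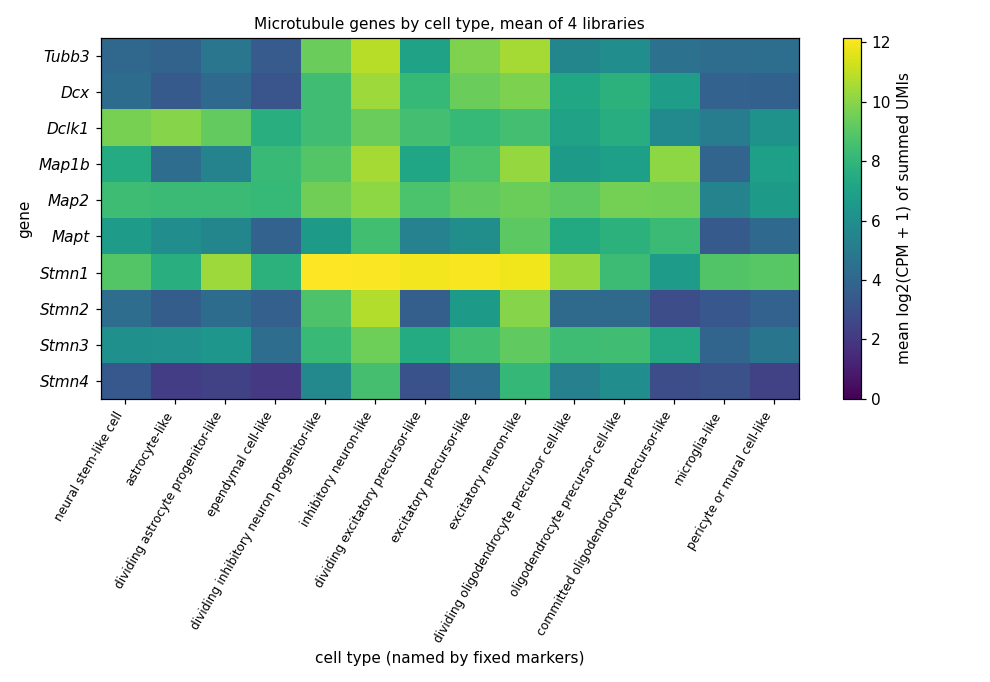
Mean log2(CPM + 1) over 4 libraries of each gene (rows) in 14 cell types (columns), with lighter colours for higher levels. The neuronal columns are light for most rows, *Dclk1* is lightest in astrocytes (974 CPM), and *Map1b* is light in committed oligodendrocyte precursors (1103 CPM) but not in oligodendrocyte precursor cells (118 CPM).

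*Tubb3*, the tubulin of the group (chr8:123411424-123422015 in mm10, plus strand), was at 2027, 1417, 2068 and 1918 CPM in the inhibitory neurons of control replicates 1 and 2 and mutant replicates 1 and 2. In excitatory neurons the same libraries gave 1560, 1184, 1469 and 1604 CPM. The 2 neuron types overlapped over libraries, although inhibitory neurons were higher within each of the 4 libraries. *Tubb3* fell off in steps through excitatory precursors (892 ± 178, SD, n = 4) and dividing inhibitory neuron progenitors (695 ± 253), which overlapped each other, to dividing excitatory precursors (137 ± 58.9). In glia it depended on the replicate. In oligodendrocyte precursor cells (OPCs) it was at 127 and 82.2 CPM in the control and mutant of replicate 1 and at 26.7 and 48.9 CPM in those of replicate 2, and the replicates did not overlap.

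*Dcx* (chrX:143855842-143933311, minus strand) showed a graded order in which dividing and immature stages were clearly separated. It was at 1150, 1455, 1167 and 1582 CPM in the inhibitory neurons of control replicates 1 and 2 and mutant replicates 1 and 2. Every one of these exceeded every library of excitatory neurons (728, 1040, 760 and 952 CPM). Excitatory precursors had 670 ± 78.6 CPM, overlapping excitatory neurons, followed by dividing inhibitory neuron progenitors at 347 ± 28.0 and dividing excitatory precursors at 277 ± 20.7 CPM. The next in the order were cells of the oligodendrocyte lineage. OPCs had 223, 227, 210 and 241 CPM, dividing OPCs 155 ± 13.3 CPM and committed oligodendrocyte precursors 113 ± 13.3 CPM, with no overlap between these 3 types. The remaining 6 types, among them astrocytes at 10.3 CPM, had means of at most 21.8 CPM and overlapped with their neighbours in the order.

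*Dclk1* (chr3:55242364-55539068, plus strand), the paralogue of *Dcx*, had a different order. It was at 913, 974, 934 and 1075 CPM in the astrocytes of control replicates 1 and 2 and mutant replicates 1 and 2. Neural stem-like cells had 903, 651, 930 and 785 CPM, lower than astrocytes in each of the 4 libraries although the ranges overlapped. Inhibitory neurons had 778, 531, 791 and 596 CPM and overlapped with dividing astrocyte progenitors (595 ± 78.5). Excitatory neurons had 371 ± 100 CPM, ependymal cells 205 ± 4.07 CPM and OPCs 188 ± 28.8 CPM. The genes Gm42609 and Gm21954 overlap *Dclk1* on the opposite strand.

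Among the structural microtubule-associated proteins, *Map1b* (chr13:99421446-99516540, minus strand) was counted at 1049, 1910, 989 and 2139 CPM in inhibitory neurons and at 981, 1751, 750 and 1695 CPM in excitatory neurons of control replicates 1 and 2 and mutant replicates 1 and 2. Replicate 2 was higher than replicate 1 for both genotypes in both neuron types. Committed oligodendrocyte precursors followed, with 993, 760, 1104 and 1555 CPM. OPCs had only 105, 138, 92.7 and 137 CPM, and astrocytes 19.7 ± 4.19 CPM. An unnamed cluster of 30 cells with *Mag* and *Mbp*, genes of myelinating oligodendrocytes, among its leading genes was found in replicate 2 alone. There *Map1b* was at 3346 CPM in 13 control cells and 4030 CPM in 17 mutant cells.

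*Map2* (chr1:66175273-66442583, plus strand) was the most evenly spread of the 3. Inhibitory neurons had 1485, 963, 1392 and 698 CPM, with replicate 2 below replicate 1. Committed oligodendrocyte precursors (787 ± 225), OPCs (782 ± 129), dividing inhibitory neuron progenitors (781 ± 299) and excitatory neurons (697 ± 130) overlapped one another. Astrocytes had 312 ± 58.5 CPM and microglia 52.7 ± 39.0 CPM. *Mapt* (chr11:104231390-104332090, plus strand) was at 642, 506, 462 and 607 CPM in excitatory neurons, above every library of inhibitory neurons (326, 378, 285 and 454 CPM). Committed oligodendrocyte precursors had 359, 285, 365 and 252 CPM, overlapping inhibitory neurons, and OPCs 214, 224, 197 and 247 CPM. Both glial types lay above dividing inhibitory neuron progenitors (98.2 ± 7.26) and excitatory precursors (63.6 ± 9.85), with no overlap. Gm10558 overlaps *Map2* and Gm11659 overlaps *Mapt* on the opposite strand.

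*Stmn1* (chr4:134468320-134473843, plus strand) did not separate progenitors from neurons. Dividing inhibitory neuron progenitors had 4900, 3923, 4807 and 4576 CPM and inhibitory neurons 4080, 4365, 4301 and 4716 CPM in control replicates 1 and 2 and mutant replicates 1 and 2. Excitatory precursors (4134 ± 330) and dividing excitatory precursors (3877 ± 288) overlapped with both. Excitatory neurons (3767 ± 275) overlapped with the dividing progenitors but lay below every library of inhibitory neurons. It did separate dividing from non-dividing glia. Dividing astrocyte progenitors had 1370 ± 333 CPM against 202 ± 12.9 in astrocytes, and dividing OPCs had 1201 ± 110 CPM against 328 ± 53.2 in OPCs. Committed oligodendrocyte precursors were lowest, at 169, 75.8, 118 and 76.0 CPM.

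*Stmn2* (chr3:8509360-8561606, plus strand) was the most restricted stathmin. It was at 1583, 2020, 1470 and 1805 CPM in inhibitory neurons and at 978, 1197, 772 and 1024 CPM in excitatory neurons. Dividing inhibitory neuron progenitors had 531, 348, 491 and 377 CPM, whereas excitatory precursors had only 95.6, 93.0, 73.6 and 143 CPM. These 4 types were separated from one another without overlap, and the other 10 types had means of 11.7 to 24.9 CPM. *Stmn3* (chr2:181306459-181314500, minus strand) was at 704 ± 46.4 CPM in inhibitory neurons and 587 ± 39.0 CPM in excitatory neurons, which did not overlap. OPCs (341 ± 19.7) overlapped with excitatory precursors (358 ± 21.9). *Stmn4* (chr14:66344296-66361680, plus strand) was at 320, 377, 345 and 470 CPM in inhibitory neurons and at 212, 333, 201 and 375 CPM in excitatory neurons. The next type was OPCs, with 42.3, 74.3, 45.0 and 91.7 CPM, where replicate 2 exceeded replicate 1 in both genotypes.

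**Figure D2:**
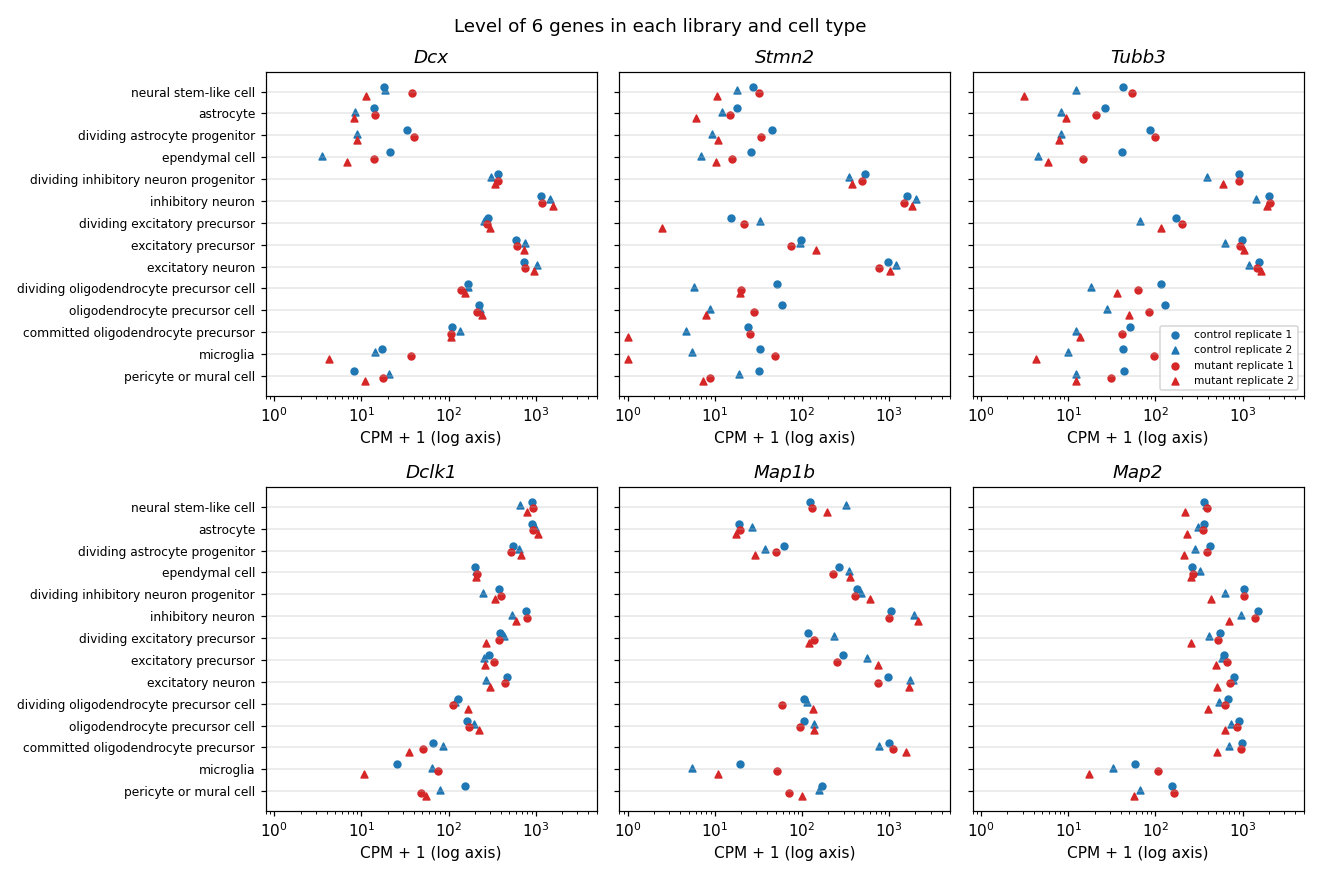
CPM + 1 on a log axis for 6 genes in 14 cell types, with 1 point per library (blue control, red mutant, circles replicate 1, triangles replicate 2). *Dcx* holds between 210 and 241 CPM in OPCs in all 4 libraries, whereas *Stmn2* and *Tubb3* in OPCs lie lower in replicate 2, and *Map2* of mutant replicate 2 is the lowest point in each of the 14 types.

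Because free RNA in a droplet can give UMIs of a gene that the cell does not express, shares of cells with a UMI were set beside those of microglia, after each cell had been thinned to 2000 UMIs. *Dcx* was found in 88.4% of inhibitory neurons, 34.2% of OPCs, 1.84% of astrocytes and 2.72% of microglia (means of 4 libraries). Without thinning these were 97.1%, 71.9%, 8.92% and 7.35%. *Stmn2* was found in 87.2% of inhibitory neurons, 3.42% of OPCs and 2.90% of microglia (94.0%, 10.9% and 8.66% without thinning). The *Stmn2* share of OPCs was thus near that of microglia, and the *Dcx* share of OPCs was not. Microglia had 67 and 1 *Stmn2* UMIs in control replicates 1 and 2 and 34 and 0 in mutant replicates 1 and 2. Levels near those of microglia are called background below, and whether free RNA gave them was not tested. The ratio of *Dcx* to *Stmn2* UMIs was 0.720 to 0.876 over libraries in inhibitory neurons and 3.89 to 34.6 in OPCs. It was also 5.08 to 8.35 in excitatory precursors and 7.96 to 206 in dividing excitatory precursors. *Tubb3* was found in 9.66% of OPCs and 3.70% of microglia (29.0% and 12.7% without thinning). *Map2* was found in 73.2% of OPCs and 7.26% of microglia (94.5% and 13.96% without thinning). *Dclk1* was found in 79.1% of astrocytes and 5.17% of microglia (98.4% and 9.70% without thinning), and *Map1b* in 62.0% of committed oligodendrocyte precursors and 18.0% of OPCs (93.2% and 45.6% without thinning). Median depth over libraries was 5303 to 6658 UMIs in inhibitory neurons, 7198 to 9674 in OPCs and 6123 to 13121 in microglia. The summed level of 10 inhibitory neuron markers was 4439 to 4713 CPM in inhibitory neurons and 44.8 to 174 CPM in OPCs, where it was higher in replicate 1 (174 and 136 CPM) than in replicate 2 (44.8 and 47.6 CPM), as were *Stmn2* and *Tubb3*. Its part in those low glial levels was not tested.

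The difference between progenitors and neurons was then tested within libraries on summed counts, with edgeR's quasi-likelihood test, the library as a block and p-values adjusted over all genes tested. Clusters were formed without these genes, but genes expressed with them still shaped the clusters, so that the p-values measure repeatability over the 4 libraries. In inhibitory neurons, 9 of the 10 genes were higher than in dividing inhibitory neuron progenitors and none was lower at an adjusted p of 0.05, where 65.2% of all 12183 genes were called, 32.8% higher and 32.4% lower. All 9 were higher in 4 of 4 libraries. The log2 difference was 2.77 ± 0.10 (standard error, as below) for *Stmn4*, 1.95 ± 0.13 for *Stmn2*, 1.91 ± 0.10 for *Dcx* and 1.81 ± 0.09 for *Mapt*. It was 1.58 ± 0.10 for *Map1b*, 1.46 ± 0.10 for *Tubb3*, 1.21 ± 0.09 for *Stmn3*, 0.97 ± 0.07 for *Dclk1* and 0.55 ± 0.07 for *Map2*. *Stmn1* differed by -0.07 ± 0.07 (adjusted p = 0.425) and was higher in 2 libraries and lower in 2. The median over the 10 genes was 1.52, against 0.02 over all genes. At a cluster resolution of 2, where a cluster of 278 cells led by histone genes stayed unnamed, the same 9 genes were higher by 0.31 to 2.22, the median over the 10 genes was 0.83 against 0.10 over all genes, *Stmn2*, *Dcx* and *Tubb3* differed by 1.18, 1.17 and 0.76, and *Stmn1* was lower by 0.47 (log2 difference -0.47, adjusted p = 7.35e-09, edgeR).

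Excitatory neurons gave the same count against excitatory precursors, with 9 of 10 genes higher, where 39.2% of all 9900 genes were called, 21.2% higher and 18% lower. The largest log2 differences were those of *Stmn4* (3.65 ± 0.14), *Stmn2* (3.35 ± 0.12) and *Mapt* (3.18 ± 0.12), followed by *Map1b* (1.60 ± 0.10). *Tubb3* and *Stmn3* differed by 0.78 ± 0.09 each. *Dclk1* (0.44 ± 0.10), *Dcx* (0.43 ± 0.09) and *Map2* (0.30 ± 0.09, adjusted p = 0.015, edgeR) were closest to the threshold of those that passed. Without control replicate 2, *Map2* no longer passed (0.24). *Stmn1* again did not pass (-0.07 ± 0.09, adjusted p = 0.565, edgeR). The median over the 10 genes was 0.78, against 0.01 over all genes. The 2 contrasts start from different stages, dividing in the first and not in the second, and were not tested against each other.

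**Figure D3:**
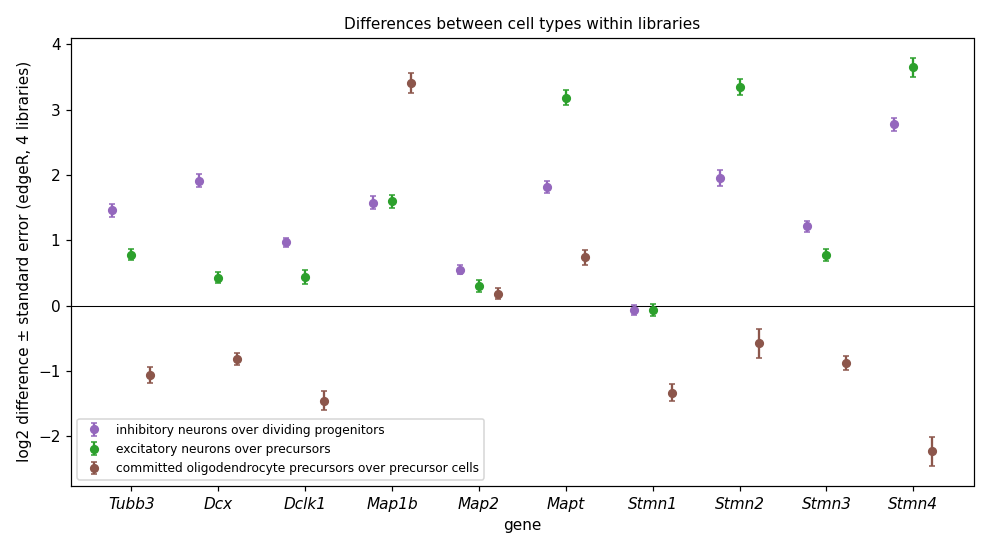
Log2 difference with its standard error (edgeR, 4 libraries) for each gene between neurons and their progenitors or precursors (purple and green) and between committed oligodendrocyte precursors and OPCs (brown). *Stmn1* lies at zero in both neuronal contrasts, and in the oligodendrocyte lineage *Map1b* (3.41) lies far above the other genes, of which 7 lie below zero.

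Along the oligodendrocyte lineage the genes moved in opposite directions. In committed oligodendrocyte precursors *Map1b* was higher than in OPCs by 3.41 ± 0.15 and *Mapt* by 0.74 ± 0.11 on the log2 scale, and 7 genes were lower. These 2 and 7 of 10 compare with 54% of all 12021 genes called, 26.4% higher and 27.6% lower. *Stmn4* differed by -2.23 ± 0.22, *Dclk1* by -1.46 ± 0.14, *Stmn1* by -1.33 ± 0.13, *Tubb3* by -1.07 ± 0.12, *Stmn3* by -0.88 ± 0.11, *Dcx* by -0.81 ± 0.09 and *Stmn2* by -0.58 ± 0.22. Each of these 9 differed in the same direction in 4 of 4 libraries. Mean levels in committed oligodendrocyte precursors were 7.58 CPM for *Stmn4* and 28.4 CPM for *Tubb3*. Microglia had 7.60 ± 2.91 and 36.9 ± 41.6 CPM (SD). Their *Tubb3* ran from 3.27 to 94.0 CPM over libraries, with 2 and 1 UMIs in control and mutant replicate 2. Both mean levels of committed precursors lay within the range of microglia, so that the size of the *Stmn4* and *Tubb3* differences rests on low counts. *Stmn2* was near background in both types, and its call was lost with DESeq2 (-0.90), without control replicate 1 (-0.24) and without mutant replicate 2 (-0.52). *Map2* differed by 0.18 ± 0.08 (adjusted p = 0.0878, edgeR) and was higher in 2 libraries and lower in 2, but it was called without control replicate 2 (0.22) or mutant replicate 2 (0.24). Only 31 and 42 committed cells came from control and mutant replicate 2, against 188 and 298 in replicate 1.

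Against astrocytes, inhibitory neurons were higher for 9 genes and lower for *Dclk1* (-0.63 ± 0.15, adjusted p = 0.00376, edgeR), where 75.6% of all 14298 genes were called, 39% higher and 36.6% lower. The log2 difference ran from 1.74 ± 0.12 for *Map2* and 2.44 ± 0.18 for *Mapt* to 6.91 ± 0.23 for *Dcx*, 6.94 ± 0.24 for *Tubb3* and 7.12 ± 0.28 for *Stmn2*. Mean astrocyte levels of the last 3 were below those of microglia. So were those of *Map1b* (19.7 against 20.9 CPM) and *Stmn4* (3.71 against 7.60 CPM). The size of these differences, and in part the median below, therefore rests on low counts. The median over the 10 genes was 5.22, against 0.06 over all genes.

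The 73 other microtubule genes were followed in the same fits. Between inhibitory neurons and dividing progenitors, 49 of 70 tested were higher and 15 lower, with a median log2 difference of 0.54 (32.8% and 32.4% of all genes, median 0.02). Tubulins split, with 4 higher and 6 lower of 10, while kinesins (9 higher, 2 lower of 11), dynein and its regulators (7 higher, 1 lower of 8) and plus- and minus-end binding proteins (9 higher, 1 lower of 10) had more genes higher than lower. The 5 largest differences were -5.08 for *Tuba1c*, -3.05 for *Tubb4b* and -3.04 for *Tubb6*, all tubulins, -4.75 for *Nde1*, a dynein regulator of mitosis, and 2.73 for *Dync1i1*, a dynein intermediate chain. In excitatory neurons 40 of 65 were higher and 8 lower (median 0.38), against 21.2% and 18% of all genes, led by *Ttll7*, a tubulin polyglutamylase (2.56), *Mtus2* (2.11), the tubulins *Tubb4a* (2.04) and *Tubb2a* (1.47), and *Mapre3*, a plus-end binding protein (1.38). In committed oligodendrocyte precursors 29 of 69 were higher and 21 lower (median 0.17), against 26.4% and 27.6% of all genes, so that the share called lower was near that of all genes. *Tubb4a* (3.81), the kinesin *Kif21a* (2.58), *Nde1* (2.35), the minus-end binding protein *Camsap2* (2.12) and *Map1a* (1.81) led there, and tubulins were higher for 6 of 8 and lower for 0. Without scaling factors, the 29 higher and 21 lower of the wider list in committed oligodendrocyte precursors became 16 and 24. The median of all genes moved from -0.02 to -0.20, and the calls of all genes from 3169 higher and 3318 lower to 2065 and 4401. The 9 calls among the 10 genes kept their direction. Against astrocytes, 48 of 72 were higher and 12 lower (median 0.52), against 39% and 36.6% of all genes, led by *Cdk5r1*, an activator of the tau kinase CDK5 (5.48), *Kif5a* (5.06), *Tuba4a* (-5.05), *Dync1i1* (4.87) and *Tubb4a* (4.14).

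Within neurons, the genes differed between clusters that the 10 genes had not defined, here called by their leading genes and described without a test. The *Dlx1as*- and *Sp9*-led cluster of 706 inhibitory neurons had *Mapt* at 149, 120, 122 and 114 CPM in control replicates 1 and 2 and mutant replicates 1 and 2. The *Galntl6*- and *Snhg11*-led cluster of 212, with only 21 and 8 cells in the control and mutant of replicate 2, had 683, 708, 598 and 1269 CPM. *Stmn1* was at 5121, 4833, 5276 and 4854 CPM in the former and at 1710, 2401, 2107 and 2965 CPM in the latter, so that the clusters did not overlap for either gene and their order was opposite. *Tubb3* followed *Stmn1*, at 2816, 1533, 2702 and 1672 CPM against 785, 719, 886 and 1162 CPM. The *Foxp2*- and *Rarb*-led cluster of 383 combined *Mapt* at 600, 626, 553 and 867 CPM with *Stmn1* at 3903, 6154, 4899 and 6589 CPM. The *Grm8*- and *Cpne4*-led cluster of 257 had *Dclk1* at 1024, 1083, 1234 and 894 CPM, above the other 4 inhibitory clusters in each library. It held only 5 and 6 cells in replicate 2, and the median depth of its cells was 0.349 of their library's median. With microtubule genes left in the clustering, a cluster of 200 cells with *Grm8* and *Cpne4* among its leading genes stayed unnamed. Among excitatory neurons, the *Neurod6*- and *Neurod2*-led cluster (276 cells, 12 in each library of replicate 2) had *Mapt* at 848, 605, 640 and 776 CPM. The *Neurod1*- and *Calb2*-led cluster of 678 had 501, 497, 414 and 594 CPM, lower within each library.

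**Figure D4:**
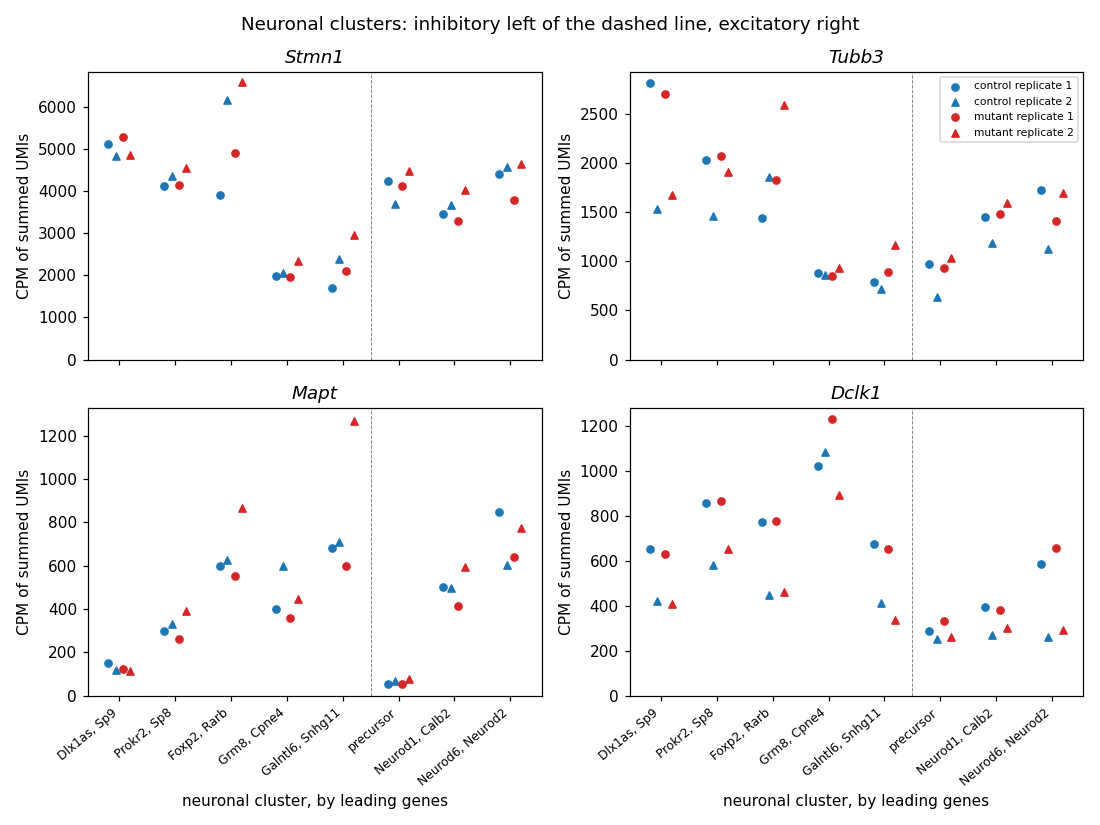
CPM of 4 genes in 5 inhibitory clusters (left of the dashed line) and 3 excitatory clusters (right), with 1 point per library (blue control, red mutant, circles replicate 1, triangles replicate 2). *Mapt* is lowest in the *Dlx1as*- and *Sp9*-led cluster (114 to 149 CPM) and in excitatory precursors, while *Stmn1* and *Tubb3* are low in the *Grm8*- and *Galntl6*-led clusters.

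As a description over the 14 types, each gene was set beside all 13793 genes that reached 10 CPM in some type, by Pearson correlation of mean log2(CPM + 1). The types share libraries, and the values carry no test. *Dcx* was most like *Crmp1*, a collapsin response mediator protein (r = 0.986), and *Zbtb17* (0.983). *Tubb3* was most like *Mir124a-1hg*, the host gene of a neuronal microRNA (0.979), and the kinase *Mapk8* (0.973), and *Stmn2* was most like *Islr2* (0.960) and *Cacng2* (0.930). *Stmn3* was nearest to *Zfp786* (0.978) and *Dpysl3* (0.978), *Stmn4* to Gm26871 (0.958), and *Stmn1* to *Fem1c* (0.946) and *Anp32a* (0.945). *Dclk1* was nearest to the sodium pump subunit *Atp1b1* (0.945) and *Ahcyl1* (0.936), *Map1b* to the tubulin *Tuba1a* (0.932) and *Arid4b* (0.930), *Map2* to *Eef1aknmt* (0.970), and *Mapt* to *Ncdn* (0.964) and *Epm2aip1* (0.945). Among the 45 pairs of the 10 genes themselves, r ran from 0.107 for *Dclk1* and *Map1b* to 0.925 for *Dcx* and *Stmn3*, with a median of 0.652.

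The genotype question was whether a heterozygous *Chd8* mutation induced at the midfetal stage altered these genes in any cell type. None of the 133 gene and type pairs tested was called (7 of 140 pairs were too low in counts to be tested, 5 of them in microglia), and 0% of the 6843 to 14778 genes tested a type were called by edgeR's quasi-likelihood test on 2 against 2 libraries. Unadjusted p-values under 0.05 were found for 6 to 71 genes a type, and for 3 of the 133 pairs, *Stmn2*, *Dclk1* and *Map1b* in pericytes or mural cells (log2 changes of -1.62, -1.18 and -0.98). DESeq2 called 2 genes over all types, neither of them among the 10. In simulated counts, this fit recovered 0% of genes changed by 2-fold in inhibitory neurons, excitatory neurons, astrocytes and OPCs. Its lack of calls therefore does not exclude such a change. With the replicate number as a block the fit recovered 59.5% in inhibitory neurons, 46.8% in excitatory neurons, 70.2% in astrocytes and 71.1% in OPCs. The changed genes were drawn at random from all genes, so that recovery of the 10 genes themselves was not measured. Counts simulated for the fit without a block carried no shared difference between replicate numbers. The blocked fit called 0 of the 10 genes and 0 of the 73 others in any type, with 0% of genes called in inhibitory neurons and OPCs, 0.00875% in excitatory neurons and 0.0541% in astrocytes. In the other types it called 0.0405% of genes in dividing excitatory precursors, 0.057% in ependymal cells, 0.117% in excitatory precursors, 0.161% in neural stem-like cells, 0.179% in committed oligodendrocyte precursors and 0.628% in microglia, and 0% in the remaining 4. At an unadjusted p under 0.05 it held 16 of 133 pairs of the 10 genes and 6067 of 161939 tests over all genes.

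*Map2* gave the clearest example of a difference that held in replicate 2 and not in replicate 1. Mutant replicate 2 was below control replicate 2 in 14 of 14 types, by a log2 difference of -0.84 to -0.24 (median -0.46). Mutant replicate 1 was below control replicate 1 in 7 of 14, by -0.16 to 0.79 (median -0.01). In excitatory neurons both mutant libraries (707 and 510 CPM) lay below both controls (791 and 778 CPM), with a log2 change of -0.37 ± 0.32 (adjusted p = 1, edgeR). In inhibitory neurons it was -0.24 ± 0.49 (adjusted p = 1, edgeR). *Stmn1* was lower in the mutant in 11 of 14 types in replicate 1 and in 1 of 14 in replicate 2. *Stmn3* was lower in both replicates in 8 types. The 14 types of a replicate number come from the same 2 libraries and are not independent observations. The share of all genes with such counts over types was not computed, so these counts have no baseline. Counting gene and type pairs in which both mutant libraries lay on the same side of both controls, 16 of the 137 pairs with at least 40 counts did so, 3 with higher and 13 with lower mutant levels. Of all 161629 gene and type pairs with at least 40 counts, 16% did so, 8.57% with higher and 7.39% with lower mutant levels. Pairs of the same gene or the same libraries are not independent, and the lean to lower levels was not tested.

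**Figure D5:**
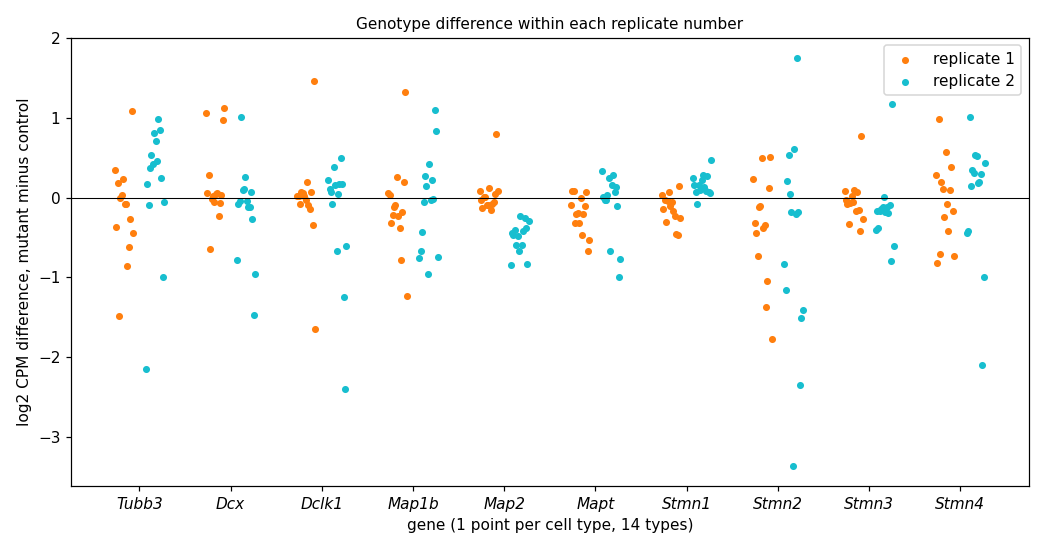
Log2 CPM difference, mutant minus control, within replicate 1 (orange) and replicate 2 (turquoise) for each gene, with 1 point for each of 14 cell types. *Map2* lies below zero in all 14 types in replicate 2 but not in replicate 1, and the widest spreads belong to genes at background in glia, such as *Stmn2*.

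The genotype effect was also compared between inhibitory and excitatory neurons as an interaction, with the library as a block. 0 of the 10 genes passed, and 0% of 12208 genes were called by edgeR, with 201 at an unadjusted p under 0.05. The differences of the 2 effects (inhibitory minus excitatory), of which 8 of 10 turned sign under some alternative, were 0.05 to 0.25 on the log2 scale, with a median of 0.11 against 0.00 over all genes, and the largest, that of *Map1b*, was 0.25 ± 0.14 (adjusted p = 1, edgeR).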

How the data were processed

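Single-cell libraries of tdTomato-positive forebrain cells were analysed from UMI counts per gene and barcode, which the authors deposited unnormalized. The authors aligned reads to mm10 with Cell Ranger. Its version is 3.0 in the submitters' processing notes and 7.0.0 (replicate 1) or 5.0.1 (replicate 2) in the file headers, and whether intronic reads were counted is not given in the sources used here. Following the study's limits, barcodes were removed below 2000 or above 40000 UMIs, below 1000 genes or above 10% mitochondrial UMIs. Log-normalized values of 2000 variable genes were scaled library by library, without the 10 genes and 73 other microtubule genes, and clustered (scanpy 1.11.5, 30 components, 15 neighbours, Leiden resolution 1, 38 clusters). Clusters were named by the highest mean marker score (at least 3 markers in 10% of cells), and clusters with near-equal scores for a second type and high UMI counts were left unnamed. These naming limits were chosen with the clusters in view. Some clusters came almost wholly from 1 replicate number, and others from both. In control replicates 1 and 2 and mutant replicates 1 and 2, an astrocyte cluster held 898, 5, 887 and 3 cells and another 19, 571, 37 and 577. An OPC cluster held 466, 31, 748 and 21 cells and another 17, 217, 13 and 270. Such clusters were pooled within a type, so that replicate differences in a type can include differences between clusters. No doublet caller was used, and 731 cells stayed unnamed.

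UMIs were summed per library and type and fitted with edgeR 4.0.16 (filterByExpr, TMM, quasi-likelihood test, Benjamini-Hochberg adjustment), genotype without a block, cell types with the library as a block. The fits were tested on simulated counts with 200 genes changed by 2-fold. CPM are UMIs per 1000000, intervals and floors cover counting error only, and log2 differences of single libraries used a prior count of 2. Alternatives were DESeq2 1.42.0, no scaling factors, no filter on low counts, at least 10 counts in every library, a replicate block, a mitochondrial limit of 5%, a resolution of 2, microtubule genes left in the clustering, unthinned cells and each library left out. Gene positions came from GENCODE vM21, which held 99.8% of the genes. The members and lists were chosen with earlier results of these data known. Named genes are the 10 members, *Chd8*, the 5 largest called differences of the wider list per cell type contrast and the 2 most correlated genes per member, of which some are not reported here. Genes that name a cluster lead it by fold, and *Xist* was named after its values were seen. Same-numbered libraries deviated together (r of 0.61 to 0.892 across genes), a number shared with the software version. Oligodendrocytes were too few for the planned comparison with OPCs. Supplementary files of the paper were not used here, except the reporting summary for the sex of the mice.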

Additional observations from a re-analysis of the deposited data

Results flagged for a closer look

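For 2 genes the mutant libraries lay above both controls in one cell type and below both in another, a contrast that was not tested as such. *Map1b* was higher in the mutant in committed oligodendrocyte precursors (1329 against 876 CPM, a log2 ratio of means of 0.601) and lower in pericytes or mural cells (83.9 against 164 CPM, -0.964), a type with 35 cells in control replicate 1. *Stmn4* was higher in the mutant in dividing inhibitory neuron progenitors (57.2 against 46.4 CPM, 0.301) and in excitatory precursors (a log2 ratio of 0.604). It was lower in astrocytes (2.92 against 4.51 CPM, -0.625) and in microglia (5.91 against 9.28 CPM, -0.652), where it was at background. *Stmn4* in microglia was too low in counts to be tested by genotype. None of the other genotype differences passed the adjusted threshold in its own type. With 2 libraries per genotype, 16% of all gene and type pairs with at least 40 counts did not overlap between genotypes. Of these pairs, 8.57% of all had higher and 7.39% lower mutant levels. The share of all genes that lie on both sides in different types was not computed. The 2 genes are therefore not read as a departure from other genes.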

How the results depend on the processing

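The counts of called members kept their value or stayed within 1.5 times of it in every fit that could be run, with 1 exception. Inhibitory neurons against dividing progenitors had 0 members lower, and 1 (*Stmn1*) at a cluster resolution of 2. Members called by genotype stayed at 0 under each alternative. Genes called by genotype over the 14 types were 0, and became 2 with DESeq2, 75 without the filter on low counts, 114 with the replicate block and 0 to 46 with a library left out, where 46 were called without mutant replicate 1. The lone library left in a group is assumed to vary like the others. The replicate block gave 0 called members and changed no call among them. Genes called in the interaction were 0, and became 19 without the filter and 0 to 4 with a library left out. For these changes the cause was not tested. In committed oligodendrocyte precursors the wider list had 29 genes higher, and 16 without scaling factors.

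Of the 40 differences between cell types, 3 turned direction, none of which had passed: *Map2* in committed precursors (0.18, and -0.019 without scaling), *Stmn1* in excitatory neurons (-0.07, and 0.014 at resolution 2) and *Stmn1* in inhibitory neurons (-0.07, and -0.138 to 0.0453 with a library left out). Genotype values, none of which passed, turned direction under some alternative for 107 of 140 gene and type pairs, among them *Map2* in inhibitory neurons (-0.24, and -0.90 to 0.22 with a library left out), as did 8 of 10 interaction values. Shares of cells rose without thinning, to 97.1% for *Dcx* in inhibitory neurons, 71.9% in OPCs, 8.92% in astrocytes and 7.35% in microglia, 98.4% and 9.70% for *Dclk1* in astrocytes and microglia, 93.2% and 45.6% for *Map1b* in committed precursors and OPCs, 94.0%, 10.9% and 8.66% for *Stmn2* in inhibitory neurons, OPCs and microglia, 94.5% for *Map2* in OPCs, and 29.0% and 12.7% for *Tubb3* in OPCs and microglia. At a mitochondrial limit of 5% the *Dclk1* share of astrocytes was 82.0%. Oligodendrocytes against OPCs could not be run, and committed precursors had no value at that limit or with microtubule genes left in the clustering. Cell number limits microglia and committed precursors, with as few as 23 and 31 cells a library.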
